A study of Xenopus laevis with 8 samples.

Results

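Signals of 15491 probe sets were ranked in 4 samples of endoderm from Xenopus laevis foregut explants that had been cultured together with their mesoderm. The ranking used the mean of the 4 log2 values of each probe set, after 120 control probe sets had been left out. The members described are the 300 brightest probe sets and the 140 transcription factor, ligand and receptor genes, of 605 measured, with a mean log2 above 8. The members were chosen by these same levels, so the levels are given as a description and carry no test.

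The study cultured foregut explants from stage 15 to stage 23 and measured 8 samples on 1 Affymetrix array each. In 4 samples the endoderm stayed with its mesoderm and was separated from it only after culture, and in 4 it was cultured as endoderm alone from the start. The labels name no transgene, added agent or genotype for either group, and number the samples of each group as sets 1 to 4. The labels do not say whether a sample is a single explant or a pool. Whether a set stands for a clutch, an animal or a day is not given, so p-values measure the spread between these samples only. Time of isolation and presence of mesoderm cannot be told apart.

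The foregut endoderm of the vertebrate embryo is the epithelium that gives rise to liver, pancreas, lung and thyroid. Its cells are specified by transcription factors of the Sox17, Gata and FoxA families, and its regions are patterned by BMP, FGF, Wnt and other signals that pass between endoderm and mesoderm. In the frog embryo these cells are large and still hold yolk.

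A log2 value is the deposited RMA intensity of 1 probe set, and a probe set is a group of short probes for 1 transcript. Brightness depends on how well those probes bind as well as on the transcript, so ranks order signals and not amounts of RNA between genes. The mean log2 had a median of 7.04 and ran from 3.06 to 13.97. As negative controls served 44 probe sets for bacterial genes or artificial tag sequences, with a median of 4.27 and a highest mean of 6.54. Above that highest control stood 9048 probe sets, or 58.4%, and above 8 stood 5184, or 33.5%. A control probe set for the EGFP reporter, a protein that no label mentions, had a mean of 7.73 ± 0.26 (SD, n = 4, as for every ± on a level below) and reached 8.08 in set 4. Array medians ran from 128.5 to 132.2 on the linear scale over all 8 arrays, and the correlation between arrays with mesoderm ran from 0.952 to 0.968 over probe sets, which are not independent.

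**Figure D1:**
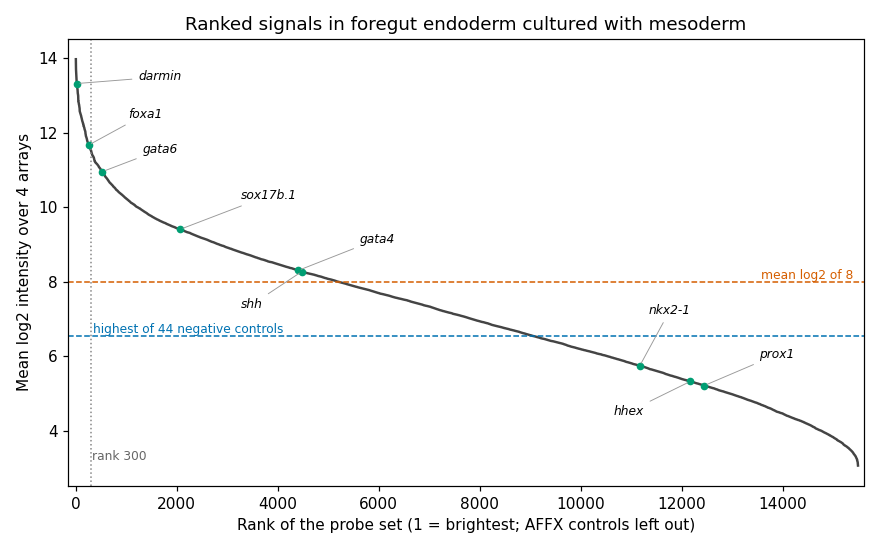
Mean log2 intensity (y axis) against rank (x axis) for the 15491 probe sets over the 4 arrays with mesoderm, with a dashed line at 8 and another at the highest negative control (6.54). Darmin (rank 21) and foxa1 (rank 255) lie among the 300 brightest, while hhex, nkx2-1 and prox1 lie below the controls.

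The 300 brightest probe sets had mean log2 values down to 11.517, with the next at 11.514, and held 27.1% of the summed linear signal of all ranked probe sets. Of them 164 carried a gene name, for 126 genes, and 136 carried none. Snrnp70, serbp1 and sec61a1 were the last named probe sets inside, at 11.53, 11.53 and 11.52. Pmm2, a probe set of rps3a and ddx5 were the first named outside, at 11.51, 11.51 and 11.50. A total of 193 of the 300 were among the 300 brightest on every one of the 4 arrays, and the lowest place of any of them on 1 array was 914. Probe sets whose type marks probes shared between transcripts made up 19.7% of the 300 against 5.79% of all ranked ones, and for these the signal cannot be given to 1 transcript.

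The single brightest probe set belonged to eef1a-s, the somatic form of the elongation factor that brings aminoacyl-tRNA to the ribosome. It read 13.72, 14.02, 14.11 and 14.02 in sets 1 to 4, a mean of 13.97 ± 0.17. Next among named genes was ckmt1b, a mitochondrial creatine kinase, at 13.79 ± 0.27. Gamt, which makes creatine, stood at 13.23 ± 0.14, so that 2 enzymes of creatine metabolism were among the 30 brightest named genes. Atp1b3, a beta subunit of the sodium pump, was there as well, at 13.64 ± 0.43.

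Several genes known from liver and gut epithelium were among the 300 brightest. Darmin, an endoderm peptidase gene first described in the frog, read 13.15, 13.52, 13.30 and 13.29, and all 4 arrays placed it far above the controls. Gjb1, the connexin of hepatocyte gap junctions, stood at 13.46 ± 0.09. Glul (glutamine synthetase, 13.24 ± 0.20), hao2 (a peroxisomal hydroxyacid oxidase, 13.22 ± 0.22) and fbp (13.05 ± 0.19) were all among the 30 brightest named genes. Fbp is named as in the deposited file. It is read here as fructose bisphosphatase of gluconeogenesis, which was not checked. C3, the central complement protein, reached 12.24 ± 0.54, and it was 11.45 in set 1 against 12.399 to 12.61 in the other sets. The dimmer of the 2 c3 probe sets was at 5.82, below the highest negative control. Of 28 keratin probe sets measured 6 were among the 300, with a median over the 28 of 7.02, and of 81 probe sets of junction and adhesion genes 4 were, with a median of 6.51. These included krt8.1 at 13.32 ± 0.43, krt18 at 12.67 ± 0.21, the tight junction gene cldn6.2 at 12.53 ± 0.17 and fn1 (fibronectin) at 13.31 ± 0.17.

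**Figure D2:**
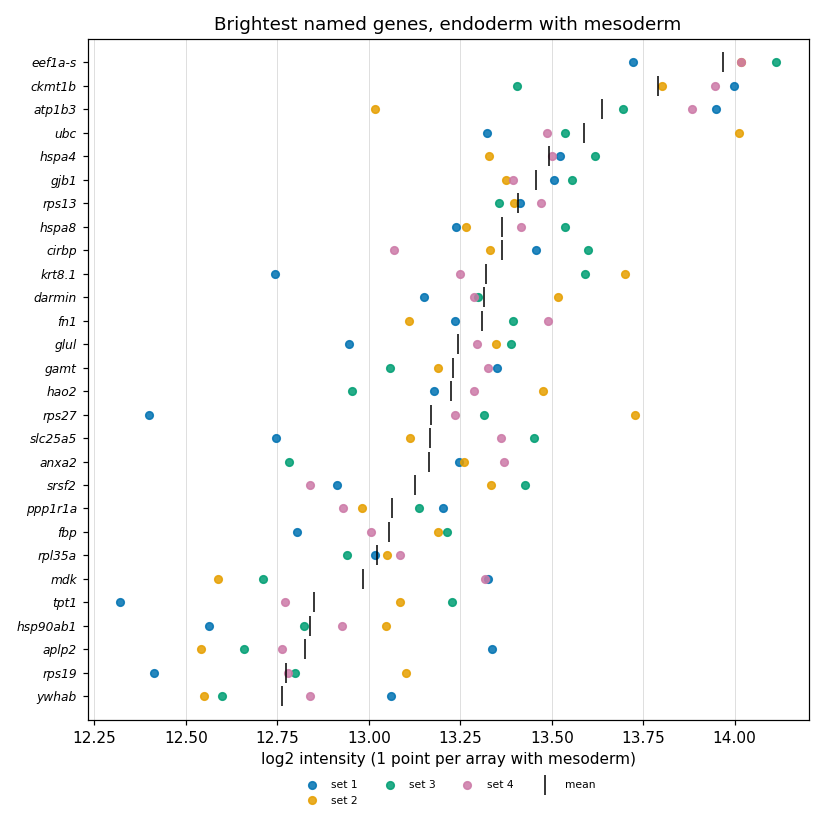
Log2 intensity (x axis) of 28 of the 30 brightest named genes (y axis, 1 probe set per gene, the brightest), with 1 point per array with mesoderm coloured by set and a bar at the mean. Means run from 13.97 (eef1a-s) to 12.76 (ywhab), and set 1 is the lowest point for rps27, krt8.1 and tpt1.

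Genes of general cell function filled most of the named part of the 300. Ribosomal proteins of the cytosol were the largest group, with 38 probe sets for 29 genes, or 57.6% of the 66 ribosomal protein probe sets measured. Splicing and RNA binding proteins held 18 probe sets (cirbp at 13.36 ± 0.23, srsf2 at 13.13 ± 0.30), and translation factors and histone or high mobility group proteins 13 each (eef1a-s at 13.97 ± 0.17, hmgn2 at 12.57 ± 0.38). Groups were set by name patterns, and that of translation factors also took in tpt1 (12.85 ± 0.40), a translationally controlled protein and not itself such a factor. Chaperones (hspa4 at 13.49 ± 0.12, hspa8 at 13.36 ± 0.14) had 7 probe sets for 7 genes. The ubiquitin system (ubc at 13.59 ± 0.30) had 7 probe sets for only 2 genes. The respiratory chain and ATP synthase group had 2 of 54 measured, atp5f1b (11.85) and slc25a5 (13.17 ± 0.32). Its name pattern took in slc25a5, an ADP/ATP carrier that belongs to neither. Cell cycle and DNA replication genes had 1 of 129, ran at 11.61 ± 0.58. For tRNA synthetases the count was 0 of 17, with a median over the 17 of 8.43.

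Of the 126 named genes among the 300 brightest, 71 had more than 1 probe set, and the gap between the brightest and the dimmest of a gene had a median of 3.05 log2 units. The same gap was 1.42 over all 1245 genes with several probe sets. For 12 of the 71 genes the dimmest probe set lay below the highest negative control. A gene's place among the 300 therefore rests on its brightest probe set.

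The spread over the 4 arrays differed widely among the 300. Rps13 was the steadiest named one, at 13.41, 13.40, 13.36 and 13.47, and rpl35a (13.02 ± 0.06) and fth1.2, a ferritin heavy chain (12.71 ± 0.07), were close to it. The widest named one was a probe set of h2az1, a histone variant (11.69 ± 0.85), whose brightest probe set was at 12.535. Next were ilf2, an RNA binding protein (11.91 ± 0.81), and sec61a1, the channel of the endoplasmic reticulum (11.52 ± 0.76). Rdd4, named as in the deposited file (12.73 ± 0.74), and rpl10 (12.55 ± 0.73) followed. Ilf2 read 10.92 in set 1 and 12.70 in set 2, and rpl10 read 11.62 and 13.39 in the same sets. The median SD of the 300 was 0.32, against 0.30 over all ranked probe sets.

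Differences between sets were tested over all 8 arrays with limma's F-test, with culture condition as a covariate and p-values adjusted by Benjamini-Hochberg across the 15491 probe sets. The test called 30.7% of all ranked probe sets, 132 of the 300 brightest (44%) and 42.1% of the other probe sets above 8. The share among the 300 was thus near that of other bright probe sets. Without set 1 the calls among the 300 fell to 16, and without set 4 they rose to 217. Calls over all ranked probe sets moved the same way, from 4763 to 1463 without set 1 and to 9716 without set 4.

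Ribosomal proteins accounted for the largest named block of these calls, 26 of their 38 probe sets. Their median log2 was 11.75 in set 1, 12.82 in set 2, 12.36 in set 3 and 12.36 in set 4. Set 1 was the lowest array for 33 of the 38, and set 2 the highest for 35. In endoderm alone the medians were 11.68, 12.72, 12.20 and 12.66, and 37 of the 38 had their lowest value in the same set as with mesoderm. Over all ranked probe sets 20.3% were lowest in set 1, and 62.6% had the same lowest set in both conditions. Over the 300 brightest these shares were 45.7% and 71%, and 48.3% were highest in set 2. A low set 1 was thus common among bright probe sets and not particular to ribosomal proteins.

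Rplp0, a protein of the ribosomal stalk, shows the pattern at 11.64, 13.36, 12.76 and 12.85 in sets 1 to 4, with an adjusted p of 0.00373 in limma's F-test. Translation factors followed it, with 10 of 13 lowest in set 1 and 8 called; pabpc1, the poly(A) binding protein, read 11.70 in set 1 and 12.72 to 12.86 in the others. Keratins were lowest in set 1 for 5 of 6. Splicing and RNA binding proteins were instead lowest in set 4 for 13 of 18, and 7 were called. Over the 300 brightest 27.3% were lowest in set 4. Rps13 and rpl35a did not follow the other ribosomal proteins, with adjusted p of 0.946 and 0.781.

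Set 1 also stood apart in a control of RNA quality. The 3′ probe set of beta-actin exceeded its 5′ probe set by 2.32 log2 units in set 1 with mesoderm, and the difference was −0.61, −0.58 and 1.00 in sets 2, 3 and 4. Alone it was 2.43 in set 1 and −0.01, 0.64 and −1.32 in the others. The same difference for Gapd was lowest in set 1, at 2.42 against 3.06 to 3.35 with mesoderm. Spike-in controls added to the hybridisation were lowest in set 2, with bioB at 6.87 against 8.001 to 8.24. The part of either in the differences between sets was not tested.

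**Figure D3:**
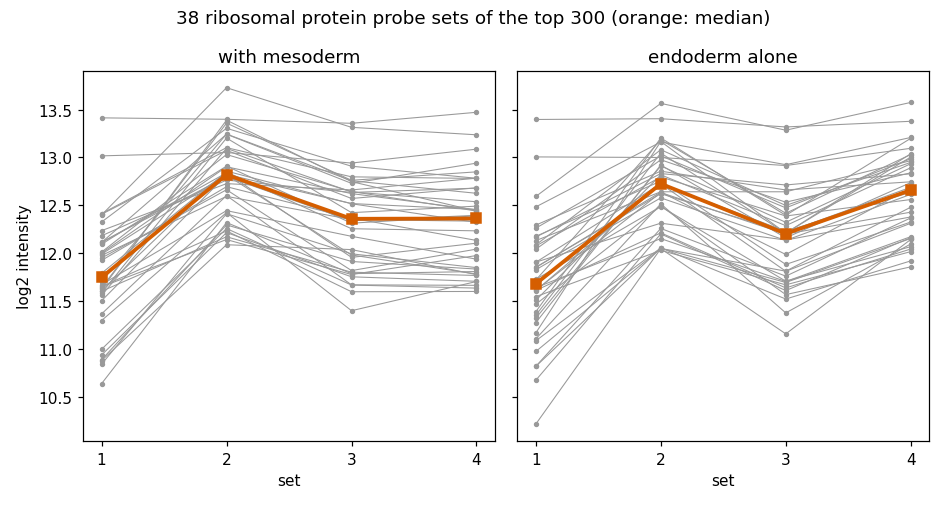
Log2 intensity (y axis) of the 38 ribosomal protein probe sets among the 300 brightest, by set (x axis), with mesoderm on the left and endoderm alone on the right. Grey lines are probe sets and the orange line is their median, which with mesoderm is 11.75 in set 1 and 12.82 in set 2.

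The labelled tissue was checked against markers of the endoderm and of its neighbours. Of 13 pan-endoderm markers 11 were measured and 7 stood above 8. Foxa1, a forkhead factor that opens chromatin in endoderm, read 11.72, 11.58, 11.62 and 11.73, and was the only one of 20 measured forkhead genes above 8. Gata5 read 10.91, 10.97, 10.88 and 10.97, and gata6 read 10.84, 11.05, 11.05 and 10.86; both are GATA factors required in endoderm. These genes hardly varied between arrays, with SDs of 0.07, 0.05 and 0.12, and adjusted p between sets of 0.899, 0.958 and 0.496 in limma's F-test.

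Other endoderm factors were uneven. Sox17b.1 read 10.26, 9.01, 10.78 and 7.56, and its relative sox17a read 9.34, 9.004, 9.41 and 6.89. Set 4 was lowest for both of these HMG box factors, which specify endoderm, and both were called between sets (adjusted p 0.00812 and 0.0112). Gata4 stood at 8.30 ± 0.51 and foxa4 at 7.69 ± 0.49. Mix1, mixer and vegt, which act early in endoderm formation in the frog, had means of 6.74, 6.41 and 5.76.

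Most foregut markers were not seen above the controls. Of 12 listed 10 were measured, and 6 of these lay at or below the highest negative control: hhex at 5.32 ± 0.28, cer1 at 5.21 ± 0.27, prox1 at 5.21 ± 0.77, nr1h5 at 4.93 ± 0.59, nkx2-1 at 5.74 ± 0.36 and sfrp5 at 6.22 ± 0.32. Each of these 6 had 1 probe set, so a dim probe set and a low transcript cannot be told apart. Hnf4a, a nuclear receptor of liver and gut, stood at 10.92 ± 0.50, and nkx2-5 at 8.24 ± 0.86. The dimmer of 2 hnf4a probe sets was at 6.17, below the highest negative control, and that of nkx2-5 was at 7.31. Ambp, the precursor of a plasma protein made by the liver, read 6.77, 10.11, 6.33 and 10.13, so that sets 2 and 4 were bright and sets 1 and 3 near the controls. Its order alone was 8.69, 11.39, 7.79 and 12.06. Hnf4a, ambp and nkx2-5 were thus the only measured foregut markers with a mean above 8, and no uncultured embryo was analysed here to set the explants against.

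Markers of other cell types were mostly dim. All 5 neural crest, all 4 epidermis and all 4 endothelium markers measured lay below the highest negative control, as did 5 of 7 neural, 6 of 8 cardiac and lateral plate and 5 of 7 somite and muscle markers. Blood was the exception, with 5 of 9 measured markers above 8. Mpo, the peroxidase of myeloid granules, read 10.06, 11.49, 10.83 and 10.12, and cebpa, a myeloid and liver factor, read 8.90, 9.93, 10.01 and 9.61, while the red cell marker hba1 was at 4.78. The log2 of the summed linear intensity of the 9 blood markers ran from 11.45 to 12.32 with mesoderm and from 10.71 to 11.22 alone. Bright markers weigh most in such a sum, and mpo had the highest mean of the 9 with mesoderm. Mpo differed by 2.08 log2 units in the mean, but hba1, tal1, gata1 and gata2 by only 0.03, 0.05, 0.13 and 0.15. The sum is therefore not a measure of all 9 markers alike. Of 4 notochord markers measured, shh, at 8.27 ± 1.15, and not, at 8.14 ± 0.52, were also above 8. The other notochord markers, tbxt (5.91) and nog (5.00), lay below the highest negative control, as did the dimmer probe set of not (6.10). Of 4 posterior endoderm markers measured 3 lay above the highest negative control. These were ventx2.1 at 10.81, ventx1.1 at 7.63 and cdx2 at 6.86, while cdx4 was at 4.82. The median over the 4 was 7.24, above the median of 5.98 over the 10 foregut markers, of which 4 lay above that control. Ventx2.1, a BMP-responsive factor, and ventx1.1 lay above the median of 7.24, and cdx2 and cdx4 lay below it. The medians therefore do not rank posterior against foregut character. In bulk RNA, fewer cells of a type and less RNA per cell cannot be told apart.

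Regulators were then counted by class. Of the 605 transcription factor, ligand and receptor genes measured, 273 exceeded the highest negative control and 140 (23.1%) exceeded 8. The share above 8 over all named genes was 41.3%. The shares above 8 were 87 of 383 transcription factors, 23 of 112 ligands and secreted inhibitors and 30 of 110 receptors. Wnt11 (8.09 ± 0.59), p2ry1 (8.06 ± 0.36) and gpr143 (8.05 ± 0.43) were the last above, and meis3 (7.99 ± 0.15), rest (7.94 ± 1.55) and fgf2 (7.93 ± 0.23) the first below. Over the 4 arrays 107 genes were above 8 on each, and with the mean of a gene's probe sets in place of the brightest 104 were. A regulator's place above 8 therefore rests on its brightest probe set. For szl, ventx2.1, bmp4, bambi and sox17b.1, among others, that probe set is of the type with shared probes.

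Among transcription factors the brightest was zbtb33, or Kaiso, a zinc finger repressor, at 12.52 ± 0.25. That probe set is of a type with shared probes, and the dimmest of the 4 zbtb33 probe sets was at 7.62. A probe set named pax3 followed at 11.88 ± 0.70, but the other 4 probe sets with that name reached down to 4.39, so the name of the bright one is uncertain. Foxa1 came next. Id2 (11.45 ± 0.36) and id3 (11.40 ± 0.19), which block helix-loop-helix factors, tfcp2l1 (11.39 ± 0.47), pou5f3.1, an Oct4 relative (11.38 ± 0.76), atf4, a stress-responsive leucine zipper factor (11.06 ± 0.26), and the BMP-responsive homeobox factor ventx2.1 (10.81 ± 0.74) completed the 15 brightest with gata6, gata5, hnf4a, sox11 (10.70 ± 0.34), ldb1 (10.52 ± 0.24) and tle5 (10.47 ± 0.14). The dimmest probe set of sox11 was at 6.49, below the highest negative control. Pou5f3.1 was high in sets 1 and 3 (11.81 and 12.24) and low in sets 2 and 4 (10.70 and 10.78).

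Families differed in how many of their genes stood above 8. GATA factors had 4 of 6, Sox and TCF factors 7 of 16, bZIP factors 7 of 19 and zinc finger factors 17 of 60. Homeobox genes had 11 of 106, basic helix-loop-helix genes 10 of 47, nuclear receptors 4 of 29 and T-box genes 1 of 11, tbx3 at 9.51 ± 0.64. Among homeobox genes hoxa3 (9.04 ± 0.28), pitx1 (9.91 ± 0.88) and nkx2-3 (8.32 ± 0.07) were included. These counts describe the probe sets present on the array and take no account of how well each binds.

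**Figure D4:**
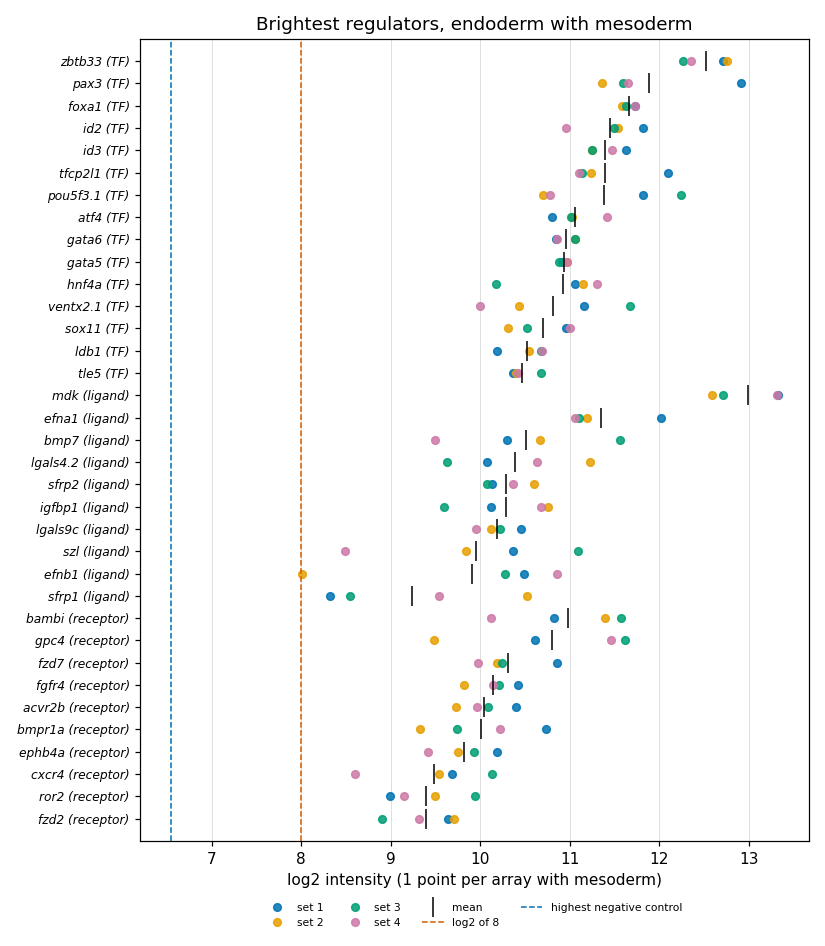
Log2 intensity (x axis) of the 15 brightest transcription factors (TF), 10 brightest ligands or secreted inhibitors and 10 brightest receptors with mesoderm (y axis), 1 point per array coloured by set and a bar at the mean, with dashed lines at 8 and at the highest negative control (6.54). Foxa1 and gata5 points nearly coincide, while sfrp1, efnb1 and szl spread over more than 2 log2 units.

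The brightest ligand was mdk, midkine, a heparin-binding growth factor, at 13.32, 12.59, 12.71 and 13.32. Efna1, a membrane-bound ephrin, followed at 11.34 ± 0.46, then the BMP ligand bmp7 at 10.51 ± 0.86 and the galectin lgals4.2 at 10.39 ± 0.69. Of 25 genes of Wnt ligands and their inhibitors 5 stood above 8 and 19 lay below the highest negative control, with a median over the 25 of 5.61. The 5 included the secreted inhibitors sfrp2 (10.29 ± 0.24) and sfrp1 (9.23 ± 1.01) and the ligands wnt11b (8.44 ± 0.79) and wnt11, while sfrp5 lay below the controls. Of 20 genes of the FGF, EGF, PDGF, VEGF, IGF and midkine group only mdk and igfbp1 (10.29 ± 0.54) stood above 8.

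Sfrp1 read 8.32, 10.52, 8.54 and 9.54, and efnb1, another ephrin, read 10.49, 8.002, 10.27 and 10.86. Set 2 was highest for the first and lowest for the second, and both were called between sets (adjusted p 0.00642 and 0.00404). No single set was therefore high or low throughout.

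Receptors above 8 included those of BMP, Wnt, FGF and Hedgehog signals. For BMP and activin, acvr2b stood at 10.04 ± 0.28, bmpr1a at 10.004 ± 0.61 and the decoy receptor bambi at 10.98 ± 0.66. For Wnt, fzd7 stood at 10.31 ± 0.38, ror2 at 9.39 ± 0.42 and fzd2 at 9.39 ± 0.37. The FGF receptor fgfr4 read 10.42, 9.81, 10.21 and 10.14, with fgfr2 at 9.14 ± 0.48 and fgfr1 at 8.86 ± 0.45. Gpc4, a glypican co-receptor (10.79 ± 0.98), ephb4a, an ephrin receptor (9.82 ± 0.32), and cxcr4, the receptor of a chemokine that guides endoderm cells in zebrafish (9.49 ± 0.64), were also among the 10 brightest. Smo, which transduces the Hedgehog signal, stood at 8.14 ± 0.39. These levels are of the brightest probe set. The dimmest probe sets of bmpr1a (4.39), acvr2b (4.99), fzd7 (6.05), gpc4 (6.47) and smo (4.72) lay below the highest negative control. Those of bambi (8.46) and fgfr4 (9.21) did not.

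Of the 140 regulators above 8, 75 (53.6%) were called between sets by limma's F-test. The shares were 30.7% over all ranked probe sets and 42.1% over the probe sets above 8 outside the 300 brightest, and the difference in shares was not tested. The count was 44 without set 1, 49 without set 2, 52 without set 3 and 98 without set 4. Over all ranked probe sets it was 1463, 1650, 3058 and 9716 in the same order, against 4763 with all sets. By class the calls with all sets were 44 of 87 transcription factors, 15 of 23 ligands and inhibitors and 16 of 30 receptors. Set 4 held the lowest value for 57 of the 140 and set 1 the highest for 47. In 94 of the 140 the highest set was the same in endoderm alone, or 67.1%, and over all ranked probe sets this was 46.9%.

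The 39 genes listed for BMP signalling were chosen after values had been seen; 33 were measured, 19 stood above 8 and 15 of those 19 were called between sets. For 9 of the 19 set 3 was highest and set 4 lowest with mesoderm, and 7 of the 9 had the same highest and lowest set alone. Over all 140 regulators 29 had set 3 highest and set 4 lowest with mesoderm, or 20.7%, and over all ranked probe sets above 8 the share was 9.45%. Called between sets were 53.6% of the 140 and 30.7% of all ranked probe sets. With the list chosen on values already seen, its counts are a description and carry no test against these shares.

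Among the ligands, bmp2 read 7.66, 7.77, 9.54 and 7.38, bmp4 9.25, 8.65, 9.998 and 8.15, and bmp7 10.30, 10.67, 11.56 and 9.50. Set 3 was highest and set 4 lowest for all 3, with adjusted p between sets of 0.00137, 0.00466 and 0.0064 in limma's F-test. The dimmer bmp4 probe set was at 6.02, below the highest negative control, and the dimmest bmp2 probe set was at 7.05. Of the secreted BMP antagonists measured, nog (5.00 ± 0.31), grem1 (4.50 ± 0.22), fst (6.25 ± 0.10) and bmper (6.34 ± 0.25) lay below the highest negative control, and twsg1 was at 7.70 ± 0.55. Tll1, a tolloid protease that frees BMP from its antagonist, read 8.83, 8.50, 9.45 and 8.23.

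Downstream, the decoy receptor bambi read 10.82, 11.40, 11.57 and 10.12, and the type I receptor acvr1 read 8.73, 8.86, 9.11 and 7.95. Ventx2.1 read 11.15, 10.43, 11.67 and 9.99, and gata2, a factor of ventral mesoderm and blood, read 8.35, 7.73, 9.46 and 7.48. Both are known targets of BMP in the frog embryo, and both were called (adjusted p 0.00496 and 0.00232). Smad4, the common partner of the signal transducers, was lowest in set 1 instead, at 7.23, 8.39, 9.16 and 8.38. Id3, another target, read 11.63, 11.25, 11.24 and 11.46 and was not called (adjusted p 0.381). Bmpr1a and acvr2b were not called either.

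Among the members the largest F between sets was that of shh, the Hedgehog ligand of notochord and gut. It read 8.92, 8.45, 6.60 and 9.12 with mesoderm and 8.78, 8.10, 6.63 and 9.19 alone, with an F of 88.4 and an adjusted p of 0.000591. Set 3, where the BMP ligands were highest, was close to the highest negative control for shh in both conditions. Pitx1, a homeobox factor, read 10.14, 10.21, 8.63 and 10.65 and was also lowest in set 3, as was hnf4a at 11.06, 11.14, 10.18 and 11.30. Of the 10 measured genes of a Hedgehog list chosen after values had been seen, 7 lay below the highest negative control, gli1, gli2 and gli3 among them.

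**Figure D5:**
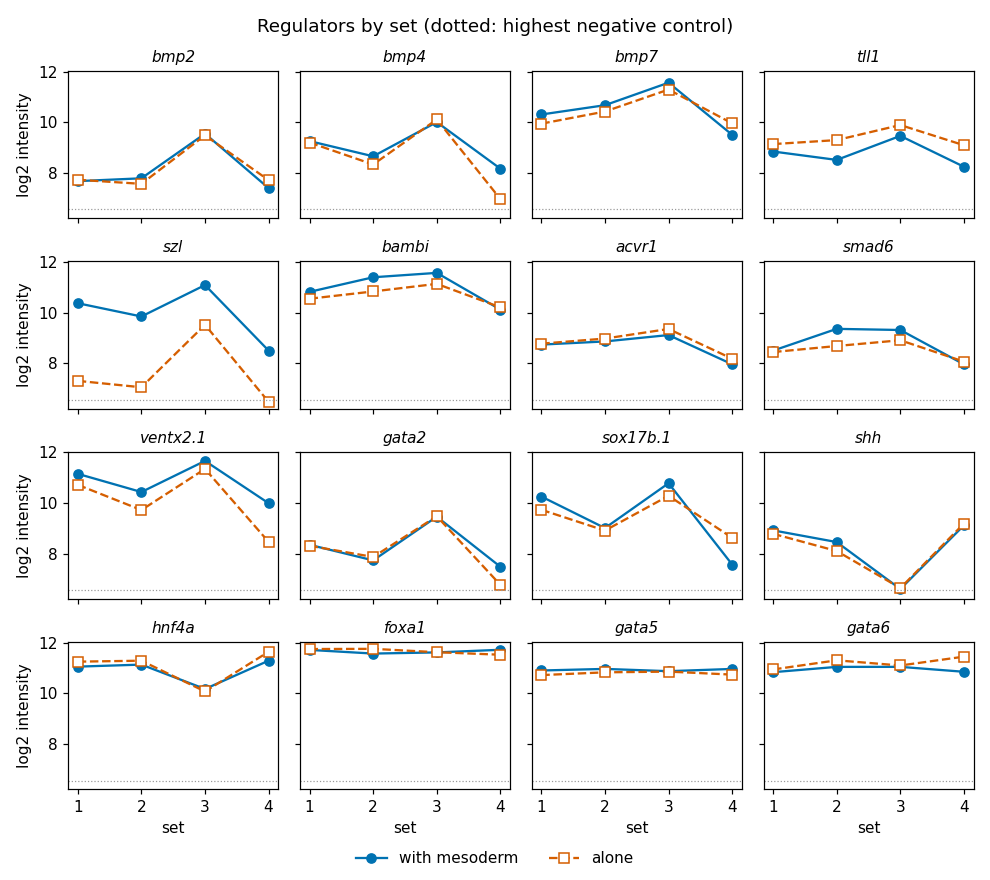
Log2 intensity (y axis) by set (x axis) for 16 regulators, with mesoderm (filled circles) and alone (open squares), and a dotted line at the highest negative control (6.54). Bmp2, bmp4, bmp7, ventx2.1 and gata2 peak in set 3, shh and hnf4a dip there, foxa1, gata5 and gata6 are flat, and szl lies lower without mesoderm in all 4 sets.

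The rankings with and without mesoderm held mostly the same probe sets. Of the 300 brightest probe sets 283, or 94.3%, were also among the 300 brightest in endoderm alone, and the lowest rank of any there was 397 (tubb5, a tubulin). Of the 140 regulators above 8, 130 were above 8 alone too. Among the 10 that were not were szl, hey1, lmo2, mycn, egr1, nkx2-5, not, slit2 and gpr143. Rank order in both conditions shares the 4 sets, and levels with mesoderm chose the members.

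Culture with mesoderm was compared with culture alone by limma over all ranked probe sets. Without a set term it called 0 of the 300 brightest and 0 of the 140 regulators, with a background of 0% of all ranked probe sets, and 2 and 9 of them had an unadjusted p under 0.05. With the set as a block, which the pairing of the sets warrants, it called 0.387% of all ranked probe sets, 0 of the 300 (15 at an unadjusted p under 0.05) and 3 of the 140 (29 at an unadjusted p under 0.05). Of all 15491 ranked probe sets, 384 had an unadjusted p under 0.05 without the set term and 1448 with the block. None of the 300 differed by as much as 1 log2 unit.

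Szl (sizzled) is secreted and blocks tolloid proteases. Its probe set is of a type with shared probes, and the dimmest of the 3 szl probe sets had a mean of 6.66 with mesoderm. Szl read 10.37, 9.84, 11.09 and 8.49 with mesoderm and 7.30, 7.04, 9.51 and 6.46 alone. It was higher with mesoderm in all 4 sets, by 2.37 ± 0.69 log2 units (SD of the 4 differences within sets; limma adjusted p 0.0166 within sets), though the groups overlapped. Egr1, an immediate early zinc finger factor, read 8.98, 8.75, 8.09 and 7.13 with mesoderm and 6.97, 6.24, 7.27 and 5.36 alone, a difference of 1.78 ± 0.71, higher in all 4 sets (adjusted p 0.0404). Sox9, an HMG box factor of progenitor cells in many epithelia, read 9.16, 9.20, 8.18 and 9.35 with mesoderm and 9.77, 10.19, 9.21 and 10.74 alone. It was lower with mesoderm by 1.00 ± 0.32 log2 units, in all 4 sets (adjusted p 0.0415). For egr1 and sox9 the groups overlapped as well. With set 1 or set 2 left out none of the 3 passed.

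Of the 9 blood markers measured 2 were called within sets in the same comparison, which called 0.387% of all ranked probe sets. The marker lists were chosen with earlier results of these data known, so this count carries no test against that share. Lcp1, a leukocyte actin-bundling protein, and csf2rb, a cytokine receptor of myeloid cells, were higher with mesoderm within sets, by 1.69 ± 0.76 and 1.06 ± 0.22 log2 units (limma adjusted p 0.0490 and 0.0292). The other 7 were not called, and mpo differed by 2.08 ± 1.52 (adjusted p 0.174). The part of blood markers in the 3 differences among regulators was not tested. Among foregut markers ambp was lower with mesoderm, by 1.64 ± 0.33 log2 units in all 4 sets (adjusted p 0.0159), and among somite markers ripply2 was lower by 1.26 ± 0.47 (adjusted p 0.0415). Without a set term limma called none of lcp1, csf2rb, ambp and ripply2 (adjusted p 0.447 and 0.171 for the first 2). With set 2 left out the block called 0 of all probe sets, so none of these genes passed there either.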

How the data were processed

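The members and the gene lists were chosen with earlier results of these data known. RNA of 8 samples was measured on Affymetrix arrays, and the deposited values are RMA intensities per probe set on the linear scale, per the submitters' processing notes and the file headers. RMA corrects background, normalizes by quantiles and summarises probes, and its version is not given in the sources used here. The file headers name 2 data sets, so normalization together with other arrays is possible. The deposited annotated table and series matrix were identical in 124888 of 124888 cells. Log2 of each value was taken. The number of arrays limits precision, and no counts lie behind the values.

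Names in the deposited table were matched to the RefSeq gene table of assembly Xenopus_laevis_v10.1 by symbol (2042 probe sets), gene ID (2102), synonym (1326) or hand (27), and 372 were kept as in the file. A gene takes its brightest probe set. Regulators were found by name patterns, less genes removed by function after values were seen. Foxa2 was not matched.

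Conditions were compared by limma 3.58.1 in R 4.3.3 (lmFit, eBayes, Benjamini-Hochberg over 15491 probe sets, called at an adjusted p under 0.05), and sets by its F-test with condition as covariate. Same-numbered arrays deviated together from their condition means (correlations 0.84, 0.85, 0.69 and 0.32, all above 0.1), so results with the set as a block stand beside those without. The tests were tried on simulated data. Genes named were the 30 brightest, the 15 brightest transcription factors, 10 ligands and 10 receptors, the 3 regulators on each side of 8 and 3 probe sets on each side of rank 300, endoderm markers, called members, the extremes of SD and F, and the 2 brightest markers of each other cell type. Other genes were named after their values were seen. Values of a few genes were left out and are not reported here.

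Alternatives were other averages, normalization again, median centring, 1 probe set per gene, other thresholds, older names, the 95th percentile of the controls, cyclic loess, a filter at a mean of 6, a trended robust variance, no condition term, and each array or set left out.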

Additional observations from a re-analysis of the deposited data

Results flagged for a closer look

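Among 119 named probe sets, 5 had 1 array with mesoderm far from the other 3, by the ratio of the gap to the range; chance flags about 1 in 20 groups of 4, or 5.95 here. Tfcp2l1 was at 12.09 in set 1 against 11.10 to 11.23 in the others, and efna1 at 12.02 in set 1 against 11.06 to 11.19. Rest, a zinc finger repressor of neuronal genes, was at 5.63 in set 2 against 8.41 to 8.94. Sox17a was at 6.89 in set 4 against 9.004 to 9.41, and sox9 at 8.18 in set 3 against 9.16 to 9.35.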

How the results depend on the processing

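The 300 brightest probe sets kept 289 to 299 members with the median, the linear mean or quantile normalization again. With 1 array left out they kept 282 to 292. Median centring moves every mean by the same amount, so its 300 of 300 could not have come out otherwise. The share also among the brightest alone was 92 to 94% for 100 or 500 in place of 300 and with each set left out. Regulators above the threshold numbered 217 at 7 and 82 at 9, and 61 when older names were not updated. With 1 array left out they numbered 137 to 143, and probe sets above the negative controls 8831 to 9212. The levels of the 119 named probe sets moved by less than their SD in all 952 recomputations. With so few arrays, leaving 1 out or taking the median cannot move a mean by more than its SD. Those recomputations could not have come out otherwise, so no conclusion on stability is drawn from them. The largest shift of a named level with 1 array left out was 0.77 log2 units.

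Pairing by set changed the comparison of conditions. The replicate block called 60 probe sets in all and 3 regulators. After cyclic loess with the block it called 21 and 2, with a filter at 6 it called 21 and 1, and with a trended robust variance 63 and 3; these combinations were chosen after seeing the data. With set 1, 2, 3 or 4 left out the block called 2, 0, 12 or 275 in all and 0 to 4 regulators, and without the block leaving out 1 array gave 0 to 1 in all. Of the 35 recomputations for the called named genes, 17 no longer passed, and no within-set direction reversed. These genes had the same direction in all 4 sets, so leaving out a set could not reverse it. The filter and the trended robust variance do not change the difference itself. No conclusion on stability of direction is therefore drawn.

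Calls between sets ranged from 1463 to 9716 over all probe sets, 16 to 217 among the 300 and 44 to 98 among regulators with a set left out; leaving out sets 1, 2 and 3 was chosen after seeing the data. The cause was not tested. Dim probe sets and shared probes limit what can be said of single transcripts.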
